A study of Rattus norvegicus with 13 samples.

Results

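The genes described here carry out antigen presentation by MHC class II in the rat. They are Cd74, RT1-Da, RT1-Bb, RT1-Ba, RT1-DMa and RT1-DMb, chosen by their symbols, and 6 of 6 were measured among the 14217 genes of the array. They had 10 probe sets in all, and where a gene had several, the one with the highest average across the 13 arrays stood for it. Values were the depositors' log2 expression from RMA, and every level, difference and standard deviation (SD) below is on that scale unless a fold is named. A level cannot be set against the level of another gene on such an array, so levels were compared between samples within a gene.

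Expression was measured in 4 intrahepatic cholangiocarcinomas that grew from BDEsp cells in young adult male Fischer 344 rats, in 2 lines derived from such tumours, and in co-cultures of those lines. BDEsp cells are rat BDE1 cholangiocytes, the cells that line bile ducts, after spontaneous transformation. The epithelial line is clone H10 of tumour-derived epithelial cells (BDEsp-TDEH10) and the fibroblastic line is clone E4 of tumour-derived fibroblastic cells positive for alpha smooth muscle actin (BDEsp-TDFE4). Each line is a single clone with a Fischer 344 background, and all cultures were grown in a gel of rat tail type I collagen. There were 4 tumour arrays, 1 array labelled as epithelial cells from co-culture, 1 array labelled as fibroblastic cells from co-culture, 3 arrays of the epithelial line alone and 4 of the fibroblastic line alone. The tumours were frozen whole, so they held every cell type of the tissue, and the cultures held those of the gel.

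MHC class II molecules show peptides from engulfed proteins to helper T cells. RT1-Da encodes the alpha chain of the rat counterpart of human HLA-DR, and RT1-Ba and RT1-Bb encode the alpha and beta chains of the counterpart of HLA-DQ. Cd74 encodes the invariant chain, which escorts new class II molecules to endosomes and fills their groove until proteases cut it. The remaining fragment is then exchanged for antigenic peptide with the help of the DM molecule, built from the products of RT1-DMa and RT1-DMb. In man and mouse these genes share a master coactivator, CIITA, which is recruited by the RFX complex, NF-Y and CREB-type factors bound to the X and Y boxes of their promoters. Dendritic cells, macrophages and B cells carry class II constitutively, and interferon gamma can bring it on in many other cells.

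Promoter sequence was taken from RefSeq on the GRCr8 build for the 5 of 6 members with an entry. RT1-DMb was the member without an entry. RT1-Db1, the beta chain that pairs with the RT1-Da product, is shown beside them. The members other than Cd74 lie on chromosome 20 in the order RT1-Da, RT1-Ba, RT1-Bb, RT1-DMb and RT1-DMa, with RT1-Db1 between the first pair, and Cd74 lies on chromosome 18. The windows of 80 bases are shown to compare the letters around the X and Y cores, where a gene has them. They are chr18:56526967-56527046 on the plus strand for Cd74, chr20:4515316-4515395 on the plus strand for RT1-Da and chr20:4604150-4604229 on the minus strand for RT1-Bb. For RT1-Ba the window is chr20:4576964-4577043 on the plus strand, for RT1-DMa chr20:4712370-4712449 on the minus strand and for RT1-Db1 chr20:4560213-4560292 on the minus strand. Each is written along the strand of its gene, and capitals mark the matches to the motifs named after them, with CCAAT standing for a Y core on the other strand.
Cd74: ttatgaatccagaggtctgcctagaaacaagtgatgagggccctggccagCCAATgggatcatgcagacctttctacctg
RT1-Da: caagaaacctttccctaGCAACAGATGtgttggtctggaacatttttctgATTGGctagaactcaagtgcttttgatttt
RT1-Db1: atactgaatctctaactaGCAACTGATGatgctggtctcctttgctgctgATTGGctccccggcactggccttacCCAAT
RT1-Bb: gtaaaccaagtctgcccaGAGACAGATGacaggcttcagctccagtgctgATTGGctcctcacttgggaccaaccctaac
RT1-Ba: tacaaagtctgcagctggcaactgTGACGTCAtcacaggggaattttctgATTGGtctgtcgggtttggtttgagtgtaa
RT1-DMa: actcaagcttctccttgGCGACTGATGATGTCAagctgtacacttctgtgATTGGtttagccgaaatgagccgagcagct

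The motifs searched, on both strands of the 250 bases before each annotated start, were an X core (GNNAC, then any 2 bases, then ATG), a Y core (ATTGG, the letters NF-Y is known to bind) and a CRE-like element (TGANGTCA). Their letters were chosen after these promoters had been read. An X core followed on the same strand by a Y core, with 10 to 30 bases between, stood before RT1-Da (23 bases between), RT1-Bb (22 bases), RT1-DMa (23 bases) and RT1-Db1 (22 bases). The same arrangement was found in 59 of all 33469 promoters, or 0.176%, against 8.09% for an X core, 34% for a Y core and 8.88% for a CRE-like element alone. RT1-Ba held a palindromic CRE-like element and a Y core, and these X letters did not occur in its window. Cd74 held a single Y core on the other strand, 189 bases before the start. In RT1-DMa the X core and the CRE-like element overlapped. A match is a run of letters and was not tested as a binding site. The search allowed no change in the letters or spacing of the X core. RT1-Ba and Cd74, which had no match, were therefore not shown to lack an X box.

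**Figure D1:**
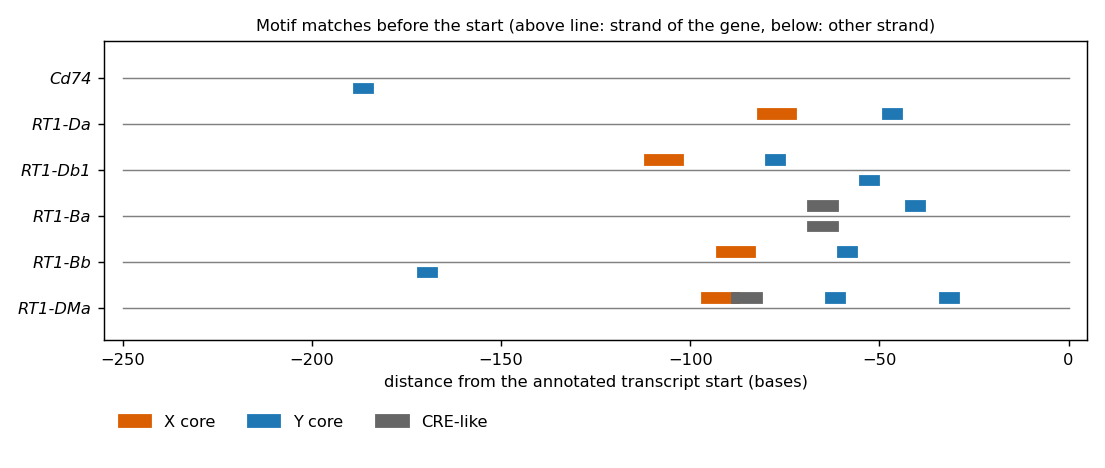
Positions of motif matches in the 250 bases before the annotated start of 5 members and RT1-Db1. The horizontal axis is the distance from the start in bases, each row is a gene, and boxes above or below a row lie on the strand of the gene or on the other strand. An X core lies upstream of a Y core in RT1-Da, RT1-Db1, RT1-Bb and RT1-DMa.

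Before the members' values, the samples need a short account. The array medians ran from 6.15 to 6.25. The lower quartiles of the arrays were 4.85 to 4.89 in the tumours and 4.66 to 4.75 in the cultures. Their upper quartiles were 7.83 to 7.95 in the tumours and 8.17 to 8.33 in the cultures. Epithelial and fibroblastic markers separated the lines grown alone, but both co-culture arrays carried both sets. Krt19, a bile duct keratin, stood at 13.49 on the array labelled epithelial co-culture and 13.21 on the array labelled fibroblastic co-culture, against 4.01 to 4.29 in the fibroblastic line alone. Col1a2, a chain of type I collagen, stood at 13.37 and 13.60 on those arrays, against 3.70 to 4.63 in the epithelial line alone. The co-culture arrays are therefore named by their labels, and each was set against both lines. Fibroblastic arrays 2 and 4 resembled each other more (SD of their differences over all genes 0.325) than either resembled array 1 or 3 (0.641 to 0.753), as did arrays 1 and 3 (0.378). Among the tumours, 1 and 4 were the most alike (0.28), against 0.52 to 0.909 for the other pairs of tumours. Tumour 2 was low in hepatocyte RNA, with Alb, the serum albumin of hepatocytes, at 7.5 against 13.94 to 14.51 in the other tumours. The difference between the 3' and 5' probe sets of beta actin, a measure of RNA integrity, was 0.61 to 0.75 in the tumours and 0.85 to 2.65 in the cultures.

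The comparison of whole tumours with the lines grown alone asked which class II transcripts were higher in the tumour tissue than in its cultured cancer and fibroblastic cells. All 6 members were higher in tumours than in either line, and on each of them the 4 tumours lay above all 9 culture arrays. That separation held for 10.3% of all genes. In the limma fit all 6 were called higher and 0 lower than in the epithelial line at adjusted p under 0.05, where 18.9% of all genes were called higher and 33.2% lower. Against the fibroblastic line 6 were again higher and 0 lower, where 27.3% of all genes were called higher and 33.5% lower. The members' median difference was 6.31 against the epithelial line and 5.83 against the fibroblastic line, beside medians of -0.17 and -0.07 over all genes. The comparisons share the 4 tumour arrays. Whether there were more cells with class II in the tumours or more class II RNA per cell cannot be told apart in bulk RNA.

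**Figure D2:**
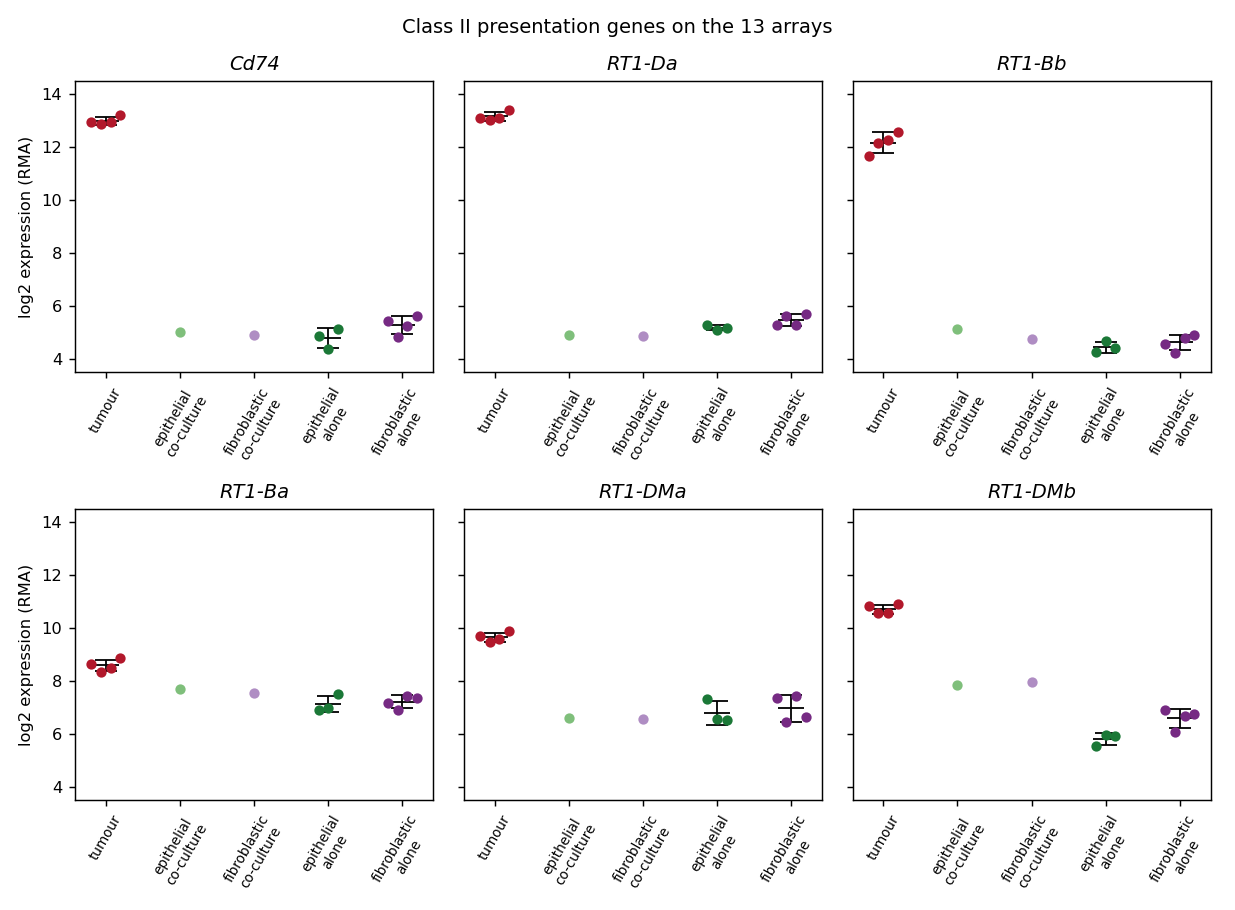
Log2 expression of the 6 members on the 13 arrays. The vertical axis is the RMA log2 value, points are arrays, and the bars of the replicated groups are the mean and SD (tumour n = 4, epithelial alone n = 3, fibroblastic alone n = 4; each co-culture is 1 array). The 4 tumours lie above all cultures in every panel, and in the RT1-DMb panel both co-culture arrays lie above both lines grown alone.

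Cd74, the invariant chain, had 12.94, 12.88, 12.95 and 13.21 in tumours 1 to 4. It had 4.88, 4.39 and 5.15 in the epithelial line, and 5.44, 4.84, 5.25 and 5.62 in the fibroblastic line. The tumours spanned 0.33 and lay far above the cultures, whose values were all below the median of their arrays. The SD was 0.15 in tumours (n = 4), against 0.39 around a mean of 4.81 in the epithelial line (n = 3) and 0.33 around a mean of 5.29 in the fibroblastic line (n = 4). The difference from the epithelial line was 8.19 (SE 0.22, limma adjusted p = 1.78e-09), a fold of 292 with a 95% interval of 210 to 406. The difference from the fibroblastic line was 7.71 (SE 0.20, limma adjusted p = 1.04e-09), or 209-fold. No detection calls were used here, so whether culture values this low stand above background was not determined, and a fold against them depends on how RMA treats dim probes.

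RT1-Da, the alpha chain of the DR-type molecule, had 13.10, 13.04, 13.10 and 13.41 in the tumours. It had 5.31, 5.10 and 5.18 in the epithelial line and 5.28, 5.64, 5.30 and 5.72 in the fibroblastic line. The lines overlapped each other and did not approach the tumours. The difference from the epithelial line was 7.97 (SE 0.15, limma adjusted p = 4.55e-10), or 250-fold with an interval of 199 to 314. Against the fibroblastic line it was 7.68 (SE 0.14, limma adjusted p = 1.48e-10), or 205-fold. RT1-Db1, its beta chain and no member of the group, moved alike, with 11.70, 11.69, 11.62 and 12.20 in the tumours and 4.80 to 6.28 in the lines. Its differences were 6.85 (SE 0.27, limma adjusted p = 2.54e-08) from the epithelial line and 6.20 (SE 0.25, limma adjusted p = 1.84e-08) from the fibroblastic line. A second RT1-Db1 probe set gave 6.46 and 6.43.

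RT1-Bb, the beta chain of the DQ-type molecule, had 11.66, 12.18, 12.28 and 12.59 in the tumours. It had 4.26, 4.68 and 4.42 in the epithelial line and 4.57, 4.25, 4.79 and 4.93 in the fibroblastic line. It varied most among the tumours, with an SD of 0.39 against a median SD of 0.18 over all genes. Its differences were 7.73 (SE 0.23, limma adjusted p = 4.52e-09) from the epithelial line, or 212-fold, and 7.54 (SE 0.21, limma adjusted p = 1.98e-09) from the fibroblastic line, or 187-fold. A second RT1-Bb probe set differed by 0.18 and 0.34 and was not called (limma adjusted p = 0.421 and 0.0906). The mean of both probe sets gave 3.95 and 3.94, and both means were called.

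RT1-Ba, the alpha chain that pairs with RT1-Bb, gave a size that depended on the probe set. The probe set that stood for it had 8.65, 8.35, 8.49 and 8.85 in the tumours. The same probe set had 6.92, 6.98 and 7.49 in the epithelial line and 7.15, 6.91, 7.44 and 7.37 in the fibroblastic line. The groups did not overlap, but the difference was 1.46 (SE 0.19, limma adjusted p = 0.00016) from the epithelial line, or 2.74-fold, and 1.37 (SE 0.17, limma adjusted p = 6.89e-05) from the fibroblastic line. A second RT1-Ba probe set, whose mean over the arrays was 7.65 beside 7.68 for the first, had 12.30, 12.33, 12.35 and 12.73 in the tumours, against 5.32 to 5.68 with epithelial cells and 5.39 to 6.36 with fibroblastic cells. Its differences were 6.93 (SE 0.21, limma adjusted p = 5.19e-09) and 6.64 (SE 0.20, limma adjusted p = 2.2e-09), close in size to those of RT1-Bb. The remaining pair of RT1-Ba probe sets gave 1.60 and 0.74 against the epithelial line, and both were called. The direction was shared by all 4 probe sets, while the fold ran from 1.67 to 122 against the epithelial line.

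**Figure D3:**
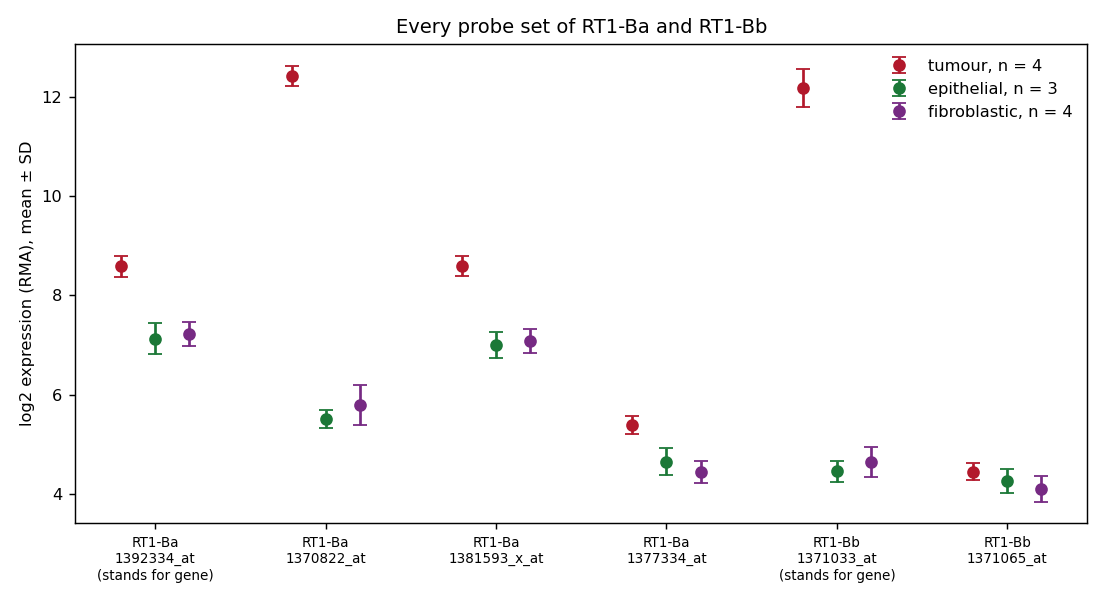
Mean log2 expression of every probe set of RT1-Ba and RT1-Bb, with SD bars, in tumours (n = 4), the epithelial line (n = 3) and the fibroblastic line (n = 4). The vertical axis is the RMA log2 value and each position on the horizontal axis is a probe set, labelled with its identifier. The gap between tumours and lines is widest for the second RT1-Ba probe set (6.93) and the first of RT1-Bb (7.73), and smallest for the second of RT1-Bb (0.18).

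The DM genes, whose product loads peptide, rose less than Cd74 and RT1-Da did. RT1-DMa had 9.69, 9.48, 9.57 and 9.88 in the tumours. It had 7.31, 6.55 and 6.51 in the epithelial line and 7.37, 6.44, 7.45 and 6.64 in the fibroblastic line. Within the fibroblastic line the high values were those of arrays 1 and 3 and the low ones those of arrays 2 and 4, the pairs that stood apart over all genes. The difference from the epithelial line was 2.86 (SE 0.28, limma adjusted p = 2.78e-05), or 7.28-fold, and that from the fibroblastic line was 2.68 (SE 0.26, limma adjusted p = 1e-05), or 6.40-fold. Against the fibroblastic line it was 2.24 without fibroblastic arrays 2 and 4 and 3.11 without arrays 1 and 3.

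RT1-DMb had 10.82, 10.57, 10.57 and 10.90 in the tumours. It had 5.56, 5.95 and 5.94 in the epithelial line and 6.89, 6.08, 6.66 and 6.74 in the fibroblastic line. It is the member whose 3 groups did not overlap at all, with tumours highest and the epithelial line lowest. The share of all genes separated in this way was not computed, so this is not read as particular to RT1-DMb. The tumours exceeded the epithelial line by 4.90 (SE 0.20, limma adjusted p = 3.22e-08), or 29.8-fold, and the fibroblastic line by 4.12 (SE 0.18, limma adjusted p = 4.11e-08), or 17.4-fold. The 95% intervals of the RT1-DMa and RT1-DMb differences lay below those of Cd74, RT1-Da and the first RT1-Bb probe set in both comparisons. The first RT1-Ba probe set (1.46 and 1.37) and the second of RT1-Bb (0.18 and 0.34) differed less than either DM gene. The second RT1-Ba probe set differed more (6.93 and 6.64), so this order depends on the probe set. How the response of the probe sets to RNA amount differs was not tested.

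Among the tumours the members kept a common order at the top. Tumour 4 was highest for 6 of 6 members, by 0.24 (RT1-DMb) to 0.55 (RT1-Bb) above the mean of the other tumours, and it was highest for 27.3% of all genes. Tumour 2 was lowest for 5 members and tumour 1 was lowest for RT1-Bb. Apart from RT1-Bb, the members spanned 0.33 to 0.49 over the 4 tumours. The members' mean level was 11.14, 11.08, 11.16 and 11.47 in tumours 1 to 4. The mean level of 18 macrophage genes was 9.48, 9.45, 9.30 and 9.75 in the same order, so tumour 4 was highest there too, while tumour 3 was lowest. Tumour 4 was also highest for the mean of the dendritic cell (6.97), T and NK cell (7.01), endothelial (7.71), hepatocyte (13.10), class I (9.77) and fibroblastic line (11.86) lists, but not of the B cell or epithelial line lists. The part of any of these cells in the order of the tumours was not tested.

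Liver content differed widely between the tumours, and the members' levels differed less. The mean of 10 hepatocyte genes was 12.87 in tumour 1, 5.65 in tumour 2, 11.40 in tumour 3 and 13.10 in tumour 4. Clec4f, a lectin of Kupffer cells, the resident macrophages of the liver, had 9.34, 6.20, 7.12 and 9.31. Tumour 2, which had the least of both, lay within 0.31 of the mean of the other tumours for each member. Tumour 4 was highest and tumour 2 lowest for the members' mean (11.47 and 11.08), as for the hepatocyte mean. Tumours 1 and 3 came in opposite orders for these means. With tumour 2 as the only tumour, all 6 members were still called higher than each line, in a fit whose spread came from the lines alone and in which tumour 2 was assumed to vary like them. The differences from the epithelial line were then 8.08 for Cd74, 7.84 for RT1-Da, 7.73 for RT1-Bb, 1.22 for RT1-Ba, 2.69 for RT1-DMa and 4.75 for RT1-DMb. The part of liver tissue in the members' levels was not tested.

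**Figure D4:**
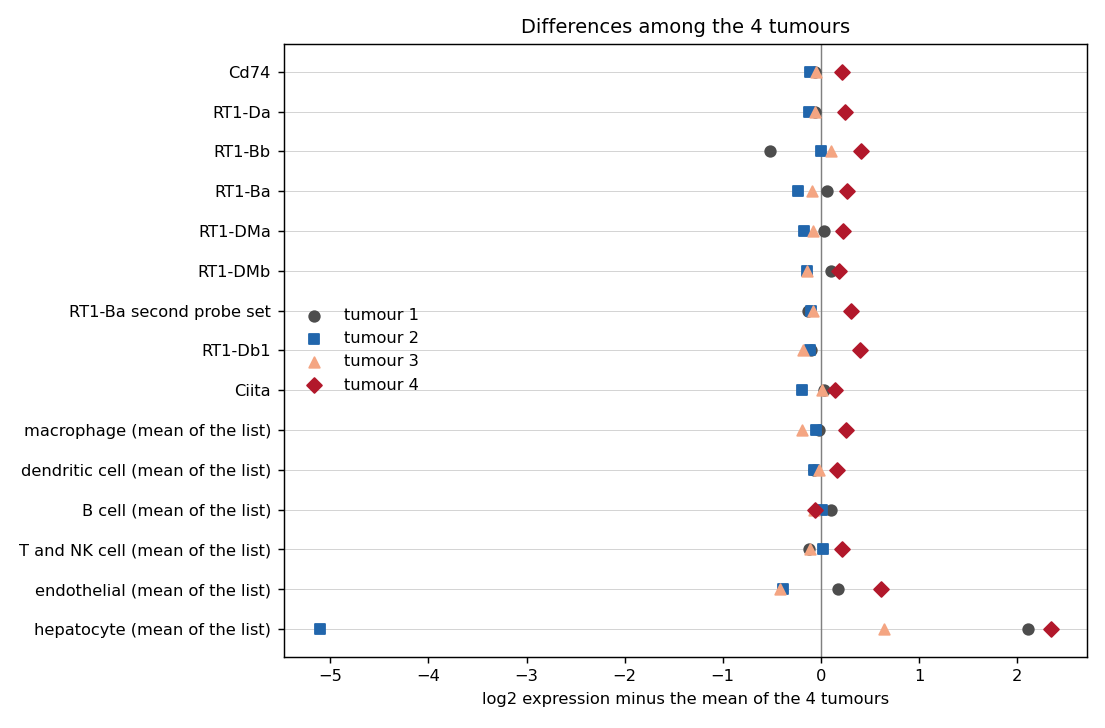
Each tumour's log2 level minus the mean of the 4 tumours, for the members, a second RT1-Ba probe set, RT1-Db1, Ciita and the mean of each list of cell type genes. The horizontal axis is the log2 deviation and each symbol is a tumour. Tumour 4 lies at the right for every member, and the hepatocyte row is spread far more widely than any member.

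Genes that work beside the members differed to very different degrees. Where a pair of differences is given for a gene from here on, the first is from the epithelial line and the next from the fibroblastic line. Of 13 accessory genes measured of 16 listed, 9 were higher and 0 lower than in the epithelial line, and 8 were higher and 1 lower than in the fibroblastic line. Their median difference was 1.56 and 0.86 in these comparisons. Ctss, the cysteine protease that trims the invariant chain in professional presenting cells, had 11.17, 11.47, 11.11 and 11.59 in the tumours, against 4.95 to 5.49 with epithelial cells and 5.14 to 5.93 with fibroblastic cells. It differed by 6.11 (SE 0.21, limma adjusted p = 9.48e-09) and 5.82 (SE 0.19, limma adjusted p = 4.89e-09) and stood beside RT1-Db1 well above the other accessory genes. Marchf1, a ubiquitin ligase that removes class II from the surface, was higher by 2.10 and 2.30. Lgmn, the asparagine endopeptidase of endosomes, was higher by 2.0 and 1.01, and Ifi30, which reduces disulfide bonds of antigens, by 1.59 and 0.83.

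Proteases with wide roles in lysosomes did not follow one pattern. Ctsl was higher than in the epithelial line by 1.56 and differed by 0.34 (limma adjusted p = 0.0978) from the fibroblastic line, and Ctsb differed by 1.71 (called) and 0.12 (limma adjusted p = 0.739). Cst3, the cathepsin inhibitor cystatin C, was higher than in the epithelial line by 1.41 and lower than in the fibroblastic line, with a difference of -2.36 (SE 0.18, limma adjusted p = 1.46e-06). Of the molecules that costimulate T cells, Cd86 was higher than in the fibroblastic line by 2.16 and differed by 0.37 (limma adjusted p = 0.376) from the epithelial line, whose arrays had 5.58, 6.29 and 7.26. Cd80 was not called in either comparison, with differences of 0.09 and 0.34. Cd40, the receptor through which T cells activate presenting cells, was higher by 0.83 and 1.15.

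**Figure D5:**
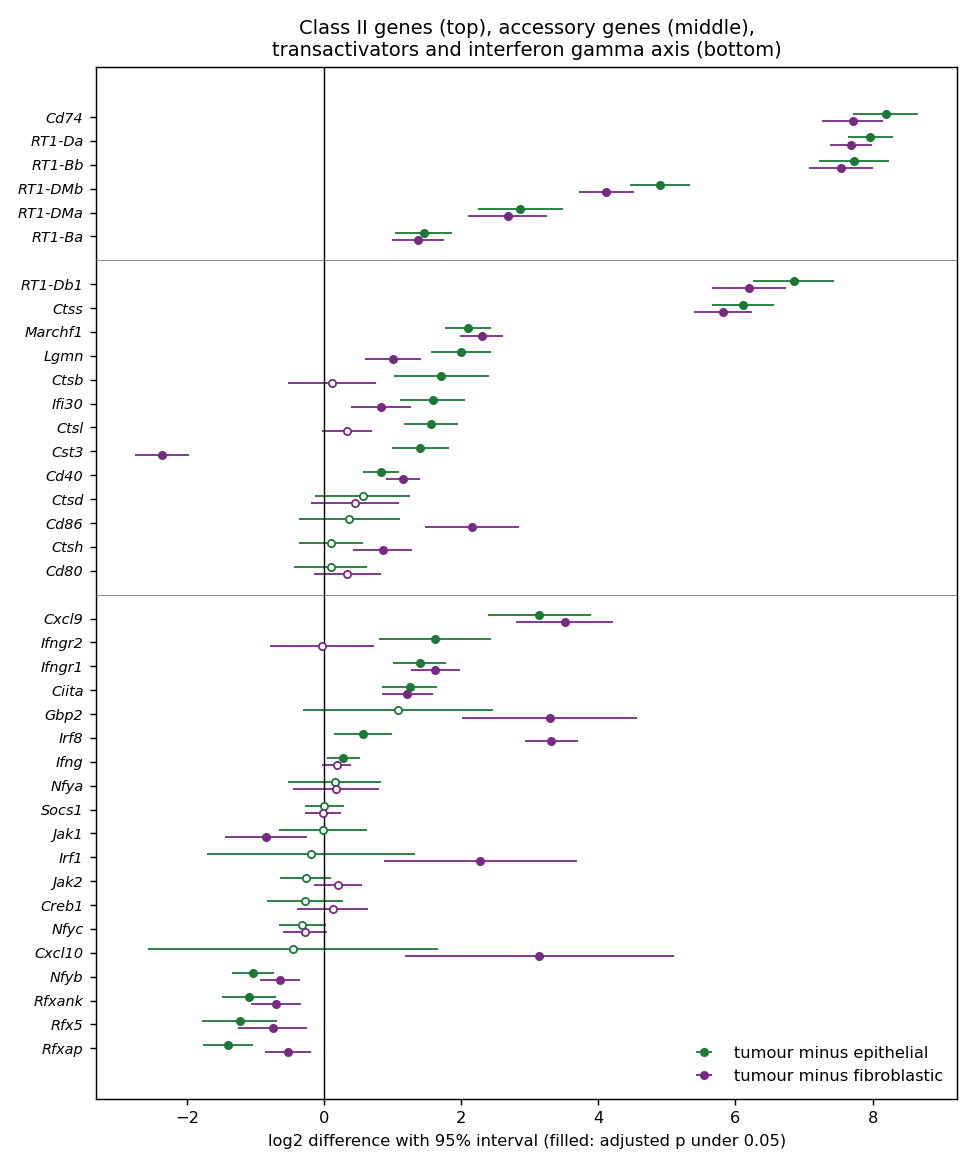
Log2 differences of the members, the accessory genes and the transactivator and interferon gamma genes, tumour minus epithelial in green and tumour minus fibroblastic in purple, with 95% intervals from limma. The horizontal axis is the log2 difference and each row is a gene, and filled symbols have an adjusted p under 0.05. Cd74, RT1-Da, RT1-Bb, RT1-Db1 and Ctss lie at the right, and the RFX subunits and Nfyb lie left of 0 in both comparisons.

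Ciita, the coactivator of class II promoters, was higher in the tumours too. It had 7.0, 6.78, 6.98 and 7.11 in the tumours, 5.57, 5.43 and 6.16 in the epithelial line and 5.82, 5.48, 5.93 and 5.77 in the fibroblastic line. The tumours lay above both lines, by 1.25 (SE 0.18, limma adjusted p = 0.000356) and 1.22 (SE 0.17, limma adjusted p = 0.000137). A second Ciita probe set gave larger differences, 1.89 and 1.88. Of 7 genes for DNA-binding partners, 4 were called lower in the tumours in both comparisons. All 3 subunits of the RFX complex were lower in the tumours, Rfxap by -1.40 and -0.53, Rfx5 by -1.23 and -0.75 and Rfxank by -1.09 and -0.70 against the epithelial and the fibroblastic line in turn. Nfyb, a subunit of NF-Y, was lower by -1.04 and -0.64, while Nfya (0.15 and 0.17), Nfyc (-0.32 and -0.28) and Creb1 (-0.28 and 0.12) were not called in either comparison. Rfx5 itself had 8.36, 8.58, 8.83 and 8.28 in the tumours, against 9.84, 9.18 and 10.21 in the epithelial line and 8.87, 9.45, 9.26 and 9.48 in the fibroblastic line.

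Of 19 genes measured of 20 listed for transactivation and the interferon gamma axis, 6 were higher and 4 lower than in the epithelial line, and 7 were higher and 5 lower than in the fibroblastic line. The median difference was -0.01 and 0.17, close to that of all genes. Cxcl9, a chemokine induced by interferon gamma, was higher in the tumours by 3.14 and 3.51, and the receptor chain Ifngr1 by 1.40 and 1.62. Ifng itself had 3.65 to 3.79 in the tumours, against 3.36 to 3.58 with epithelial cells alone and 3.45 to 3.64 with fibroblastic cells alone, all below the lower quartile of their arrays. Its mean was 3.73 in the tumours, 3.45 in the epithelial line and 3.55 in the fibroblastic line. It was among the 6 genes called higher than in the epithelial line and was not called against the fibroblastic line. Irf8, a transcription factor of myeloid cells, was higher by 0.57 and 3.32.

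Irf1, Cxcl10 and Gbp2, listed with the interferon gamma axis, varied widely among the cultures. Epithelial array 3 had 11.27 for Irf1, an interferon-induced transcription factor, against 8.53 and 9.24 on the other epithelial arrays and 9.20 to 9.99 in the tumours. The chemokine Cxcl10 had 11.70 on that array, against 7.60 to 9.84 in the tumours, and the guanylate-binding protein gene Gbp2 had 10.44, against at most 11.34 in the tumours. Cxcl9 was 5.23 there, against 6.82 to 8.35 in the tumours. In the fibroblastic line Irf1 was 5.97 to 8.35, Gbp2 5.6 to 8.21 and Cxcl10 4.81 to 6.42. On epithelial array 3 Cd74 was 5.15, against 4.88 and 4.39 on the other epithelial arrays, and RT1-Ba was 7.49, against 6.92 and 6.98. RT1-Da was 5.18, RT1-Bb 4.42, RT1-DMa 6.51 and RT1-DMb 5.94 on array 3, none of them the highest of the epithelial arrays. Ciita was 6.16 on array 3, the highest of the epithelial arrays and below every tumour. Irf1, Cxcl10 and Gbp2 were not called between tumours and the epithelial line (limma adjusted p = 0.83, 0.713 and 0.168) and were called higher in tumours than in the fibroblastic line, by 2.28, 3.14 and 3.29.

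Genes of other cell types rose in the tumours beside the members. All 18 macrophage genes measured of 22 listed were higher than in each line, with median differences of 4.35 and 4.42 and a mean level of 9.30 to 9.75 in the tumours, against 5.19 to 5.52 for epithelial and 5.11 to 5.36 for fibroblastic arrays. The complement genes C1qa (6.78), C1qb (6.59) and C1qc (5.89) and the lysozyme gene Lyz2 (6.45) led them as differences from the epithelial line. Of 9 dendritic cell genes 8 were higher than in the epithelial line, with Clec10a (5.51), Cd83 (2.69), Itgax (2.19) and Clec9a (1.94) in front, and 7 were higher and 1 lower than in the fibroblastic line. Their mean level was 6.74 to 6.97 in the tumours, against 4.97 to 5.18 for epithelial and 5.36 to 5.67 for fibroblastic arrays. Of 6 B cell genes 3 were higher than in the epithelial line and 4 than in the fibroblastic line, and the defining genes Cd79a and Pax5 were not analysed here. Their mean level was 6.33 to 6.50 in the tumours, against 5.63 to 5.88 for epithelial and 4.78 to 5.15 for fibroblastic arrays. The B cell gene Fcrla was higher by 1.54 and 1.49, Cd22 by 1.23 and 1.26 and Ms4a1 by 0.97 and 0.94. Of the other measured B cell genes, Cd79b averaged 5.63 in the tumours, against 5.59 in the epithelial and 5.40 in the fibroblastic line. Cr2 averaged 4.72, against 4.54 and 4.41 in the same order, and Blnk 8.65, against 8.83 and 4.81. Of 15 T and NK cell genes 13 and 14 were higher, led by Cd8a (5.20), and of 8 endothelial genes 7 and 6 were higher, led by Lyve1 (3.48). The part of each of these cell types in the members' levels was not tested.

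The 10 genes most like the mean profile of the members over the 13 arrays were ranked by likeness, with no test. Likeness was the root mean square difference in log2 after each profile was centred on its own mean, so a small value means a similar rise in the tumours. It was 0.338 for Clec10a, a lectin of macrophages and dendritic cells, 0.347 for Ctss and 0.359 for the mannose receptor gene Mrc1. Fcrl2 (0.362), the Fc receptor gene Fcgr3a (0.386), Tmem176b (0.393), Clec7a, which encodes the beta-glucan receptor dectin-1 (0.398), Lgals2 (0.401), Cd300c2 (0.403) and the Fc receptor gamma chain Fcer1g (0.406) followed. Of the listed genes next in order, Tyrobp, a signalling adaptor of myeloid and NK cells, had 0.438, the T cell gene Cd8a 0.444 and the macrophage gene Cd163 0.446. The members themselves differed from their own mean profile by 0.757 (RT1-DMb) to 1.83 (RT1-Ba), because their rises differ in size. Arrays of a group share their source, so the measure mostly reflects the contrast of tumours and cultures.

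Between the lines grown alone the members were close. Of 6 members 0 were called higher in the epithelial line, where 20.9% of all genes were, and 1 was called lower, where 16.6% were. That gene was RT1-DMb, with 5.56, 5.95 and 5.94 in the epithelial line against 6.89, 6.08, 6.66 and 6.74 in the fibroblastic line, a difference of -0.78 (SE 0.22, limma adjusted p = 0.0252). The call was lost without epithelial array 1 (limma adjusted p = 0.0889), fibroblastic array 1 (0.057), array 3 (0.0539) or array 4 (0.0644), and without arrays 1 and 3 together (0.108). It was also lost with replicate number added to the fit as a block (0.105). The other members differed by -0.48 (Cd74) to -0.08 (RT1-Ba), with unadjusted p above 0.05. The 95% interval for Cd74 was -1.05 to 0.09 and that for RT1-Ba was -0.55 to 0.38.

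The co-culture arrays asked whether growing the lines together changed the members, and RT1-DMb was the member that differed from both lines. It had 7.86 on the array labelled epithelial co-culture and 7.97 on the array labelled fibroblastic co-culture, against 5.56 to 5.95 for epithelial cells alone and 6.08 to 6.89 for fibroblastic cells alone. Both co-culture arrays stood above all 7 arrays of the lines, as they did for 5.80% of all genes, and below all 4 tumours. The epithelial co-culture array exceeded the epithelial line by 2.04 (SE 0.33, limma adjusted p = 0.0094), or 4.12-fold with an interval of 2.41 to 7.02, where 4.87% of all genes were called higher and 2.37% lower. The fibroblastic co-culture array exceeded the fibroblastic line by 1.37 (SE 0.32, limma adjusted p = 0.0396), or 2.59-fold with an interval of 1.54 to 4.34, where 4.78% of all genes were called higher and 3.63% lower. Since both arrays carried the markers of both lines, each was also set against the other line. The epithelial co-culture array exceeded the fibroblastic line by 1.26 (limma adjusted p = 0.045), where 5.59% of all genes were called higher, and the fibroblastic co-culture array exceeded the epithelial line by 2.15 (limma adjusted p = 0.00652), where 5.44% were.

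Each co-culture is 1 array, assumed in the fit to vary like the replicated lines. The RT1-DMb call of the fibroblastic co-culture array against the fibroblastic line was lost with only the groups compared (limma adjusted p = 0.0841) and without epithelial array 2 (0.0607) or 3 (0.0622), and without fibroblastic array 3 (0.065) or 4 (0.067). Centring the arrays on their medians also lost it (0.0544). Adding replicate number to the fit as a block, or an adjusted p limit of 0.01, lost it as well. The block also lost the RT1-DMb call of the epithelial co-culture array against the epithelial line. No alternatives were run for the comparisons of each co-culture array with the other line.

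The other members were not called in co-culture. RT1-Ba had 7.69 and 7.54 on the arrays labelled epithelial and fibroblastic co-culture, above all 7 arrays of the lines, with differences of 0.55 and 0.32 from the line of the label (limma adjusted p = 0.343 and 0.612). The second RT1-Ba probe set went the other way, with differences of -0.33 and -0.87 (limma adjusted p = 0.701 and 0.204). RT1-Da had 4.90 and 4.86, below all 7 arrays of the lines, a position held by 8.85% of all genes. Its differences were -0.30 and -0.62 (limma adjusted p = 0.571 and 0.183), with an unadjusted p of 0.0318 for the fibroblastic co-culture array. Cd74 had 5.04 and 4.92 and RT1-Bb 5.15 and 4.78, with 95% intervals of -0.63 to 1.09 for Cd74 and -0.001 to 1.39 for RT1-Bb against the epithelial line. RT1-DMa had 6.60 and 6.57, within the range of both lines. Ciita had 6.01 and 6.34 and Ctss 5.57 and 6.12. The mean of the macrophage genes was 5.48 and 5.43 on the co-culture arrays, within or near the ranges of the lines given above. Single genes of that list moved either way. Cd68 had 6.74 and 6.67, against 5.86 to 6.11 in the epithelial and 4.85 to 5.76 in the fibroblastic line. Fcgr1a had 4.23 and 4.37, against 4.78 to 5.07 and 4.29 to 5.10 in the same order.

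A response to co-culture could not be measured for each line, because both co-culture arrays carried the markers of both lines. The difference between the 2 co-culture contrasts therefore also holds the gap between the lines grown alone, with its sign turned. In that contrast 7 of 8 epithelial line genes were called lower and 8 of 10 fibroblastic line genes higher. The limma test called 0 of 6 members, where 8.43% of all genes were called in either direction. RT1-DMb had the largest value of the members, 0.67 (SE 0.46), with a 95% interval of -0.40 to 1.74 and a limma adjusted p of 0.482, beside -0.78 between the lines alone.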

How the data were processed

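Biotin-labelled total RNA was hybridised to Affymetrix rat arrays, per the labels' protocols. The deposited values are log2 expression per probe set, made with RMA per the submitters' processing notes. As a method RMA includes background correction, quantile normalization and probe summary. The values were not transformed again. Of 31099 probe sets, 57 controls were left out and 20826 named a single gene, with symbols updated mostly by Entrez identifier. Quantile normalization draws arrays towards a common distribution, so differences are relative to all genes. The quartiles of the deposited values still differed between tumours and cultures.

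Groups were compared with limma 3.58.1 in R 4.3.3 (moderated statistics, two-sided, Benjamini-Hochberg over 14217 genes, called at adjusted p under 0.05). Tumour comparisons used a fit of 11 arrays (tumours and lines alone), and the others a fit of 9 arrays (lines alone and in co-culture). The precision is limited by the number of arrays. The labels do not say that replicate arrays came from separate cultures, so each p-value rests on a spread between arrays that may be technical. The sample titles number the tumours as replicates and do not name the animals. The fits were tested on simulated data. Tables, motif searches and plots used Python 3.11.15.

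The members, gene lists and settings were chosen with earlier results of these data known. Accessory and transactivator genes could all be named, and of the other lists up to 4 called genes with the largest difference between tumours and the epithelial line. The 10 genes most like the members were named as well. Clec4f, Tyrobp, Cd163, Cd68, Fcgr1a, Krt19, Col1a2, Psmb8, Nlrc5, Cd79b, Cr2 and Blnk fall outside that rule and were chosen after their values were seen.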

Additional observations from a re-analysis of the deposited data

Results flagged for a closer look

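The second RT1-Ba probe set had 12.73 in tumour 4 and 12.30 to 12.35 in the other tumours. The gap below tumour 4 took 0.877 of the whole range of the 4 tumours, past Dixon's 95% critical value for 4 values. This was 1 of 14 such tests, over 7 probe sets in the tumours and in the fibroblastic line, and chance passes the limit in about 1 of 20. Tumour 4 was also the highest tumour for all 6 members, by 0.24 to 0.55 above the mean of the others.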

How the results depend on the processing

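All 6 members stayed higher in tumours than in each line under each of 28 alternatives. Among these alternatives the lowest differences were those of RT1-Ba (1.22 and 1.14, with tumour 2 as the only tumour), and RT1-Bb fell to 3.95 and 3.94 with the mean of its probe sets. No alternative put the second RT1-Bb probe set in place of the first. On its own that probe set differed by 0.18 and 0.34 and was not called (limma adjusted p = 0.421 and 0.0906). The dimmest RT1-Ba probe set, also not put in place of the first, differed by 0.74 and 0.95. Counts over all genes moved more. Genes higher and lower than in the epithelial line numbered 2685 and 4722, against 1459 and 2006 at a 2-fold limit, 917 and 1041 with tumour 2 as the only tumour, and 1652 and 2897 without tumours 1 and 4. The higher genes were 1302 without the dimmest genes and 1633 at an adjusted p limit of 0.01. Against the fibroblastic line 3888 and 4764 became 1846 and 2497 at the 2-fold limit and 1662 and 2250 with tumour 2 alone, and the higher genes were 1827 without the dimmest genes.

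Between the lines, 2967 genes higher became 1668 at the 2-fold limit and 1747 at the 0.01 limit. The lone call, RT1-DMb, became 0 members at those limits, with the replicate block (adjusted p = 0.105) and without fibroblastic arrays 1 and 3, and ran from 0 to 1 members as each array was left out. For the epithelial co-culture array, 692 genes higher became 408 with the replicate block and 426 at the 0.01 limit. Its 337 genes lower became 820 in a single fit of 13 arrays, 108 with only the groups compared, 43 with the block, 27 at the 0.01 limit, 515 without fibroblastic arrays 1 and 3, and 162 to 337 as each array was left out. RT1-DMb was lost there with the block, leaving 0 members (adjusted p = 0.0896). For the fibroblastic co-culture array, 679 and 516 genes became 336 and 174 with the block and 340 and 192 at the 0.01 limit, and 932 were lower without fibroblastic arrays 1 and 3. The RT1-DMb call was lost, leaving 0 members, with only the groups compared (adjusted p = 0.0841), with arrays centred on their median (0.0544), with the block (0.179) and at the 0.01 limit, and ran from 0 to 1 members as each array was left out. In the test of the difference between the co-culture contrasts, 663 higher and 535 lower became 394 and 238 at the 0.01 limit, 1142 and 933 without fibroblastic arrays 1 and 3, 839 lower in a single fit and 316 lower with the block. The cause of these shifts was not tested, apart from the fewer genes or arrays that an alternative leaves. Deviations of same-numbered arrays had correlations of -0.148 to 0.143. No differently numbered arrays were set beside them, so whether the numbers pair arrays was not settled. The replicate block is given as an alternative. Leaving out pairs of fibroblastic arrays, tumours 1 and 4, and the other RT1-Ba probe set were chosen after seeing the data.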

Other observations

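MHC class I presentation shows T cells peptides of a cell's own proteins. Of 18 such genes measured of 21 listed, limma called 8 higher and 1 lower in tumours against the epithelial line, and 15 higher and 0 lower against the fibroblastic line. The class I gene RT1-S3 was higher by 3.41 and 4.14 and RT1-CE10 by 1.66 and 2.12. The chaperones Calr (1.67 and 1.10) and Pdia3 (1.62 and 1.69) were higher too. Psmb8, an immunoproteasome subunit, was higher by 0.70 and 4.20, and Nlrc5, the class I counterpart of Ciita, was lower than in the epithelial line by -0.75 and higher than in the fibroblastic line by 1.61.

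Class I genes also differed in co-culture, where 2 of 18 were called on the epithelial and 5 of 18 on the fibroblastic co-culture array, all higher. RT1-S3 exceeded the line of the label by 1.74 on the epithelial co-culture array and 2.66 on the fibroblastic one, and RT1-CE10 by 1.02 and 1.36. Both arrays carry markers of both lines, and the epithelial line alone exceeded the fibroblastic line for Psmb8 by 3.49 and for Nlrc5 by 2.36. On the fibroblastic co-culture array these genes exceeded the fibroblastic line by 3.0 and 1.62, and the part of the mixture in this was not tested. Jak2, a kinase of the interferon gamma receptor, had 8.29 and 9.09 on the epithelial and fibroblastic co-culture arrays, against 7.55 to 7.87 and 7.08 to 7.44 in the lines alone.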
